A study of Mus musculus with 24 samples.

Results

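The genes of glycolysis and of the cellular response to low oxygen were followed in alveolar epithelial type II cells (AEC2s) taken from the mouse lung and placed in culture. The 35 genes were listed by name and matched by symbol in a table of 55421 mouse gene identifiers. All 35 were found, and all 35 passed the filter on low counts that left 18046 genes for testing. The Krt8+/+ groups were AEC2s of wild-type mice, harvested freshly isolated (day 0) and on days 1, 3, and 7 of culture. The Krt8-/- groups were AEC2s of mice with a global knockout of Krt8, which encodes keratin 8, harvested at the same times. No agent was added in either genotype, and the cells of both were grown in 2D on a stiff, laminin-coated substrate. The sample titles carry 3 dates, each with 1 library in each of the 8 groups. The date was read here as that of the cell isolation, and the dates are called isolations 1, 2, and 3. The sources used here give neither age nor strain for the mice.

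Glycolysis splits glucose into pyruvate, and lactate dehydrogenase turns pyruvate into lactate when it does not enter the mitochondria. In low oxygen, the hypoxia-inducible factor HIF-1 (Hif1a encodes its regulated subunit) escapes hydroxylation by the enzymes that Egln1 and Egln3 encode, and it then activates glycolytic genes together with genes such as Vegfa, Car9, Adm, and Bnip3. Surfactant comes from AEC2s, and the flat AEC1s can arise from them. Many glycolytic steps are served by several isoenzymes encoded by separate genes, so that the same step can be carried by different genes in different cells.

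HIF-1 binds DNA at a short core, written here as ACGTG or GCGTG, which was searched on both strands (CACGT and CACGC when read on the other strand). RefSeq promoter windows of GRCm38.p6, from 250 bases before to 50 bases after the start of transcription, were found for 33 of the 35 genes, all but Slc2a3 and Ndrg1. Where a gene had several windows, the window with the most matches was used. Of the 33 genes, 30 had at least 1 match, with a median of 2. Among the 11696 genes tested that had a window by symbol, 65.0% had a match and the median was 1, and among all 32851 windows 43.8% had a match. Of the genes with a window that rose in Krt8+/+ cells on day 1 or day 7, 16 of 19 had a match, and of those that fell on day 1 or day 7 without rising on either, 12 of 12 had one. The 6 windows below are those of the rising genes with the most matches, with ties settled by the larger change. They are shown because they hold the letters by which HIF-1 targets are usually recognised. Ldha and Hk1 count as rising by day 7 but were lower on day 1, and these calls did not hold in every alternative fit. Capitals mark the matches, and overlapping matches run together. Each line reads 5′ to 3′ along the strand of the gene.
Ldha (chr7:46845554-46845853, plus strand): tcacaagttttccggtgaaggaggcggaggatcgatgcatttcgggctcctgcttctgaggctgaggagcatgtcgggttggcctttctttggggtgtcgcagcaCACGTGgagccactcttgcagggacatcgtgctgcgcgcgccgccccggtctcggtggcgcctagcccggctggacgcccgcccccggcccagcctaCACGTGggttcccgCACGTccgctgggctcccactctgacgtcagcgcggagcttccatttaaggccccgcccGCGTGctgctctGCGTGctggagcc
Hk1 (chr10:62340372-62340671, minus strand): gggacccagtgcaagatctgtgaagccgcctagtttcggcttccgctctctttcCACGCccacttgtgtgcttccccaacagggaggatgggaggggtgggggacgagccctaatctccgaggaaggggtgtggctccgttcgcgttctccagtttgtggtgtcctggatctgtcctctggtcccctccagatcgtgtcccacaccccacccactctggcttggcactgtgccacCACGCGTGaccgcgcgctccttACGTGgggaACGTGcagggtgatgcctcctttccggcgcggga
Pfkfb3 (chr2:11502041-11502340, minus strand): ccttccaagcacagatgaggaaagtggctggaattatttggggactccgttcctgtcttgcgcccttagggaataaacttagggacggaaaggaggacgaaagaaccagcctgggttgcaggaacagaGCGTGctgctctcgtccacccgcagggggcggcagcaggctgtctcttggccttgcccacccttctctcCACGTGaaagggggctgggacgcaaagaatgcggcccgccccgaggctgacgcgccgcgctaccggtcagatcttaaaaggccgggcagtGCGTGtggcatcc
Ankrd37 (chr8:45999801-46000100, minus strand): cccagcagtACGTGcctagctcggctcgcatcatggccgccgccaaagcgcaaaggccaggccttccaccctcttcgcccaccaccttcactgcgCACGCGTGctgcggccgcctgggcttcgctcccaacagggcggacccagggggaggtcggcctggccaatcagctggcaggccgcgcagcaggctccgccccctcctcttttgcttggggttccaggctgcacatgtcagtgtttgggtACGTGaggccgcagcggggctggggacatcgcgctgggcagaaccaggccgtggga
Pfkp (chr13:6648722-6649021, minus strand): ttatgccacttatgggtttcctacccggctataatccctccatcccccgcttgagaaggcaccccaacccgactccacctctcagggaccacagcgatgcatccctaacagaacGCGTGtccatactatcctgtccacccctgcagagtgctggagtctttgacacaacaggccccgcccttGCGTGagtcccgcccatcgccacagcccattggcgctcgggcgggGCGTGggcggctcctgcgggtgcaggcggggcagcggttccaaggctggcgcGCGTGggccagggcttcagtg
Pgam1 (chr19:41911621-41911920, plus strand): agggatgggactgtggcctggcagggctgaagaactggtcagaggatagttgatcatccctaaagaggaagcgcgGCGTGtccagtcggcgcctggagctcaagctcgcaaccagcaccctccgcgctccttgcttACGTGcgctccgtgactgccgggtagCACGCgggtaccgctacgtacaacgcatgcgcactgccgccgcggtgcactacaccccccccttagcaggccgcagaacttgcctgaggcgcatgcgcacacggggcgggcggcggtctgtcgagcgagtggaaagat
The Ldha window held 7 matches and 2 copies of CACGTG, a palindrome that counts as a match on both strands and is also the E-box to which MYC binds. The Hk1 window had 5 matches, the Pfkfb3, Ankrd37, and Pfkp windows 4 each, and the Pgam1 window 3. Among all windows, 7.15% held CACGTG. Among genes that fell, the Bnip3 and Slc16a1 windows each had 5 matches, and among genes that rose, the Tpi1, Eno2, and Gpi1 windows had 0.

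Total counts per library ranged from 10184439 to 19483386. Levels are given as CPM, the counts of a gene relative to the library total with TMM scaling factors, which put the median log2 change of all genes over day 0 close to 0. With library totals alone as scaling, that median rose by 0.43 to 0.60, and every gene's change over day 0 with it. The labelled cell type was checked in fresh cells, where 6 AEC2 markers together were at 222000 to 294000 CPM in Krt8+/+ libraries, and their sum fell to a mean of 147 CPM on day 7. On day 1, isolation 2 stood apart, with an AEC2 sum of 14700 CPM in Krt8+/+ and 13900 CPM in Krt8-/- cells against 61500 to 85800 CPM in the other day 1 libraries. The sum of 6 fibroblast markers, none of them at 0 in any group, averaged 591, 182, 1370, and 1270 CPM on days 0, 1, 3, and 7 in Krt8+/+ cells, and reached 3180 CPM in the Krt8-/- day 7 library of isolation 3. The sum of 3 airway markers went from 6280 to 26.1 CPM, and that of 5 proliferation markers from 35.6 to 271 CPM between days 0 and 7 in Krt8+/+ cells. In fresh cells, the airway sum was at 11700 to 17000 CPM in Krt8-/- libraries and 4140 to 9670 CPM in Krt8+/+ libraries. The sum of 6 AEC1 markers was then at 3230 to 3590 CPM and 2390 to 3070 CPM. None of these airway and AEC1 markers was called between genotypes on day 0. In isolations 1, 2, and 3 of Krt8+/+ cells, the sum of 8 macrophage markers was at 42.7, 27.7, and 14.3 CPM on day 0. On day 7 it was at 141, 41.1, and 7.18 CPM, lower in isolation 3 and higher in the others. The part of these cells in the results was not tested, and in bulk RNA fewer cells of a type and less RNA per cell cannot be told apart. Group means of Krt8 were 523 to 4030 CPM in wild-type cells, against 29.6 to 38.2 CPM in the knockout.

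The 35 genes took a growing share of the counts in culture. The share is relative to library totals. On that scaling, the median log2 change of all genes over day 0 in Krt8+/+ cells was 0.46, 0.60, and 0.45 on days 1, 3, and 7. The share thus holds a general shift as well as changes of the 35. In Krt8+/+ cells, they held 0.433% ± 0.0104 (SD, n = 3) of all counts in fresh cells, 0.799% ± 0.0572 after 1 day, 1.16% ± 0.10 after 3 days, and 1.27% ± 0.106 after 7 days. The mean shares in Krt8-/- cells were 0.447%, 0.858%, 1.08%, and 1.23% on these days. Per length, as RPKM (reads per kilobase of exon, scaled as CPM), the highest levels in fresh Krt8+/+ cells were those of Ldha at 304, Ldhb at 252, Aldoa at 206, Pkm at 121, and Bnip3 at 107 RPKM. On day 7, they were those of Eno1 at 513, Ldha at 421, Aldoa at 392, Pkm at 382, and Gapdh at 360 RPKM. The place of Gapdh in both orders is uncertain, since near-identical copies, left out here, held 48.8% to 55.9% of the reads of gene and copies together. Eno1 had ranked 15 of 35 on day 0, and Ldhb ranked 16 of 35 on day 7.

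Of the 35 genes, 13 were higher and 12 lower on day 1 than on day 0 in Krt8+/+ cells, at an adjusted p under 0.05 in edgeR's quasi-likelihood F test over all 18046 genes. Among all genes tested, 26.2% were higher and 28.5% lower in the same comparison. On day 3, 16 were higher and 12 lower (all genes, 26.1% and 27.8%), and on day 7, 19 were higher and 10 lower (all genes, 28.6% and 30.2%). The median log2 change of the 35 genes was 0.23, 0.43, and 0.44 on days 1, 3, and 7. From day 1 to day 3, 8 genes rose and 5 fell (all genes, 14.4% and 11.9%), and Aldoc fell too with the isolation as a block (-1.56, adjusted p = 0.00720). From day 3 to day 7, Eno1 rose (0.63, adjusted p = 0.0133) and Ndrg1 fell (all genes, 3.11% and 3.47%), but Eno1 missed the threshold without isolation 1 (0.72, adjusted p = 0.113) or isolation 2 (0.66, adjusted p = 0.114) or isolation 3 (0.50, adjusted p = 0.150). With the isolation as a block, Slc2a1 also rose at this step (0.57, adjusted p = 0.0266). There were 12 genes that were higher on all 3 days of culture, namely Adm, Aldoa, Ankrd37, Egln3, Eno1, Gapdh, Pfkfb3, Pfkp, Pgam1, Pgk1, Pkm, and Slc2a1. The 8 that were lower on all 3 days were Aldoc, Bnip3, Egln1, Ldhb, P4ha1, P4ha2, Pdk1, and Pfkfb4. Car9 and Slc2a3 passed the threshold on none of them. The 3 comparisons share the day 0 libraries, and calls on all 3 days were not counted over all genes. On day 7, Ankrd37 did not pass in every alternative fit, with log2 changes of 0.85 to 1.57 and adjusted p up to 0.0988. Without isolation 2, whose day 1 libraries stood apart, 22 genes were called on day 1 in Krt8+/+ cells, against 25 with it.

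**Figure D1:**
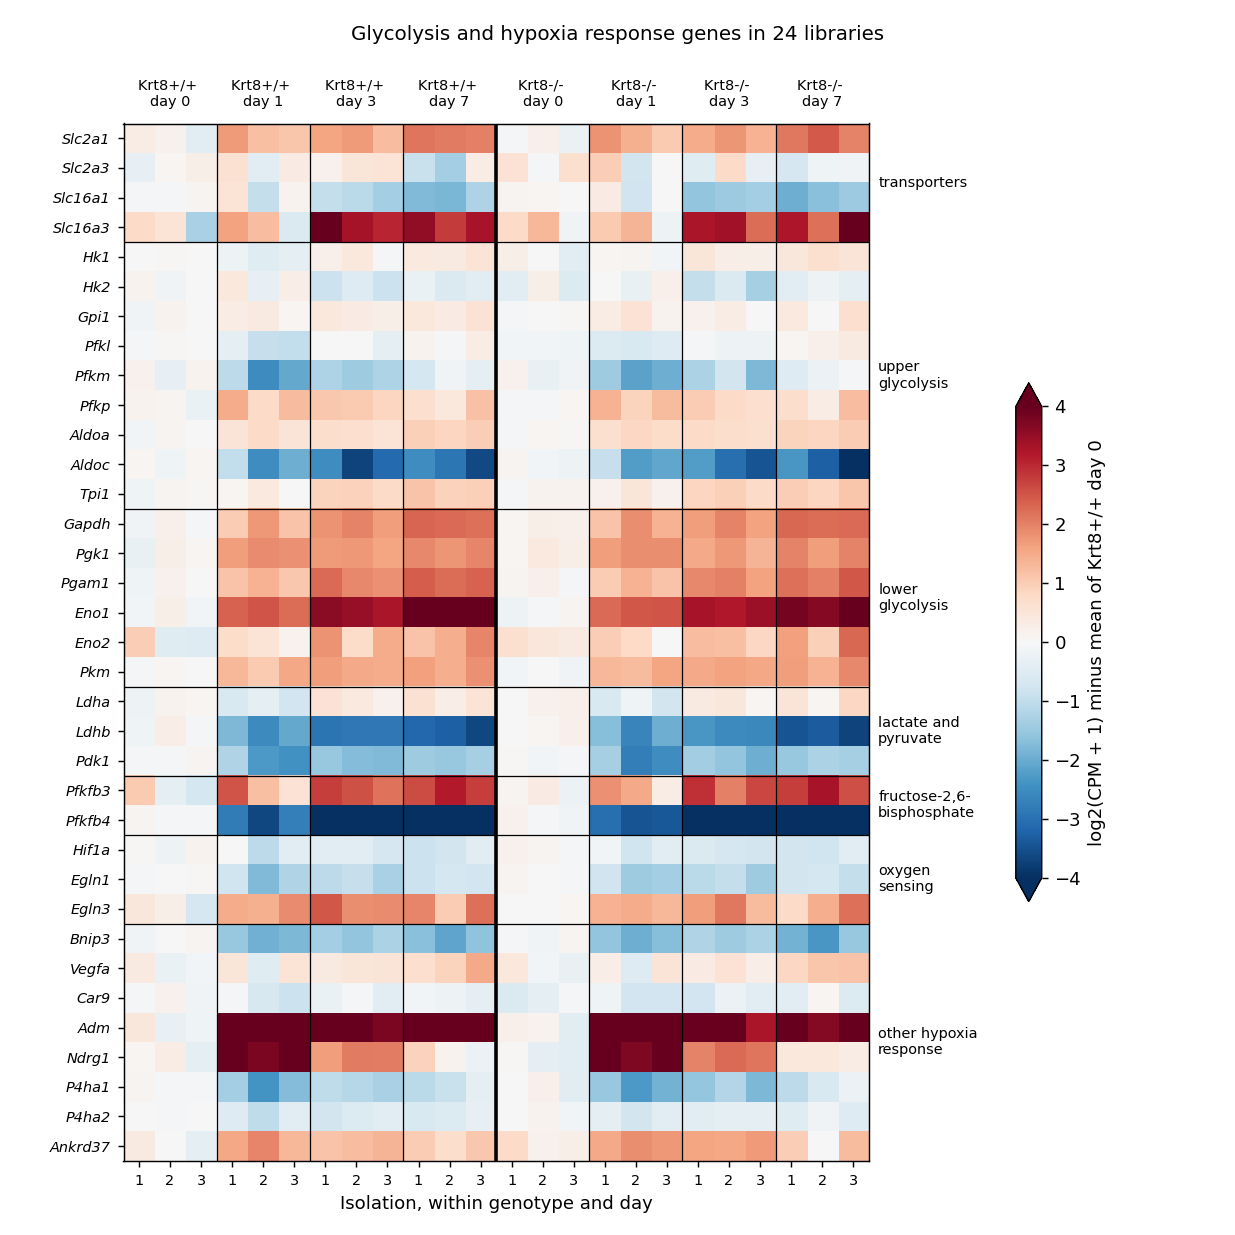
Heatmap of the 35 genes (rows, by role) in 24 libraries (columns, by genotype, day, and isolation), colored by log2(CPM + 1) minus the mean of the 3 Krt8+/+ day 0 libraries, with the scale ending at -4 and 4. Gapdh, Pgk1, Pgam1, Eno1, and Pkm were above the fresh Krt8+/+ mean in every culture library, and Ldhb, Pfkfb4, Aldoc, and Bnip3 were below it in every one.

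Among the transporters, the glucose carrier Slc2a1 (GLUT1) rose, the lactate carrier Slc16a3 rose, and the lactate carrier Slc16a1 fell. Slc2a1 was at 46.1, 42.4, and 27.2 CPM in the 3 Krt8+/+ libraries of day 0 and at 171, 161, and 154 CPM on day 7, with no overlap. Its log2 change was 2.07 (standard error 0.22, adjusted p = 1.34e-07) on day 7 and 1.35 (adjusted p = 3.42e-05) on day 1. Slc2a3 (GLUT3) ranged from 0.581 to 5.14 CPM over the Krt8+/+ libraries.

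Slc16a3 (chr11:120948480-120960868, plus strand, GRCm38), which encodes the lactate exporter MCT4, had the largest rise of the transporters on days 3 and 7. It was at 7.88, 6.61, and 1.11 CPM on day 0, at 14.8, 11.3, and 2.51 CPM on day 1, at 86.4, 51.4, and 42.6 CPM on day 3, and at 60.6, 35.7, and 50.6 CPM on day 7 in isolations 1, 2, and 3. Days 0 and 1 overlapped, and every library of days 3 and 7 lay above them. The log2 change of Slc16a3 was 0.83 (standard error 0.66, adjusted p = 0.294) on day 1, 3.49 (standard error 0.68, adjusted p = 2e-04) on day 3, and 3.20 (standard error 0.67, adjusted p = 0.000374) on day 7, and the step from day 1 to day 3 was 2.66 (adjusted p = 0.00463), which missed the threshold without isolation 1 (2.78, adjusted p = 0.0552). The fibroblast marker sum rose over the same step, and the Krt8-/- day 7 library with the highest such sum also had the highest Slc16a3 (88.6 CPM). On day 3, isolations had the same order by fibroblast sum as by Slc16a3 in both genotypes. In isolations 1, 2, and 3, the sums were 1780, 1320, and 997 CPM in Krt8+/+ cells. Krt8-/- cells had sums of 980, 1300, and 631 CPM and Slc16a3 at 48.8, 53.1, and 23.4 CPM. Among the Krt8+/+ day 7 libraries the orders differed. There, isolation 3 had the highest sum (1910 CPM), and isolation 1 had the lowest sum (895 CPM) and the highest Slc16a3. The Krt8-/- day 7 library with the highest sum was also the highest of its group in Eno1, Pkm, and Ldha, but not in Slc2a1 or Pfkfb3. The part of fibroblasts in Slc16a3 was not tested.

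Slc16a1 (chr3:104638668-104658462, plus strand), which encodes MCT1, a carrier that moves lactate in either direction, went the other way. It was at 165, 160, and 182 CPM on day 0, at 249, 86.3, and 185 CPM on day 1, at 87.3, 79.1, and 65.7 CPM on day 3, and at 49.4, 47.3, and 70.6 CPM on day 7. All libraries of day 7 lay below all of day 0, whereas day 1 spanned both sides of it, with isolation 2 lowest. The log2 change was 0.04 (standard error 0.28, adjusted p = 0.915) on day 1 and -1.60 (standard error 0.29, adjusted p = 7.13e-05) on day 7.

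The upper enzymes of glycolysis, from hexokinase to triosephosphate isomerase, were mixed. Of 9 genes, 2 were higher and 4 lower on day 1 (all genes, 26.2% and 28.5%), and 5 were higher and 1 lower on day 7 (all genes, 28.6% and 30.2%). The largest rise on day 1 was that of Pfkp (chr13:6579768-6648777, minus strand), the platelet type of phosphofructokinase, the enzyme of the committed step. Pfkp was at 31.3, 30.3, and 23.5 CPM on day 0, at 81.4, 48.1, and 69.2 CPM on day 1, at 60.5, 59.4, and 52.0 CPM on day 3, and at 45.7, 38.1, and 64.5 CPM on day 7. No culture library overlapped day 0, and the mean was highest on day 1. The log2 change of Pfkp was 1.22 (standard error 0.24, adjusted p = 0.000204) on day 1 and 0.80 (standard error 0.23, adjusted p = 0.00598) on day 7, and the latter missed the threshold without isolation 3 (0.44, adjusted p = 0.156). Pfkp shares 748 exon bases with Pitrm1 on the opposite strand, whose reads cannot be told apart if strand was not used in counting.

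The muscle type Pfkm had a log2 change of -1.96 (adjusted p = 0.000136) on day 1 and -0.44 (adjusted p = 0.284) on day 7, and the liver type Pfkl of -0.75 (adjusted p = 0.000261) and 0.14 (adjusted p = 0.419). The day 1 fall of Pfkl missed the threshold with library totals alone (-0.28, adjusted p = 0.0953). Hk1, the housekeeping hexokinase, was at -0.36 (adjusted p = 0.0401) on day 1 and 0.43 (adjusted p = 0.0149) on day 7. Its day 1 value was 0.10 with library totals alone as scaling and missed the threshold without isolation 1 (-0.45, adjusted p = 0.0631) or isolation 2 (-0.21, adjusted p = 0.417) or isolation 3 (-0.35, adjusted p = 0.0852), and its day 7 value did so without isolation 1 (0.44, adjusted p = 0.0647) or isolation 3 (0.37, adjusted p = 0.0689). Hk2, the inducible hexokinase, was 0.15 (adjusted p = 0.592) on day 1 and -0.44 (adjusted p = 0.103) on day 7. Gpi1, glucose-6-phosphate isomerase, was 0.44 (adjusted p = 0.0141) on day 7 and missed the threshold without isolation 1 (0.39, adjusted p = 0.173) or isolation 3 (0.36, adjusted p = 0.0902).

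Aldolase C and aldolase A moved apart. Aldoc (chr11:78322968-78327781, plus strand), the brain type, had the largest fall of the upper enzymes on day 7. It was at 34.7, 29.6, and 35.3 CPM on day 0, at 16.2, 5.10, and 7.81 CPM on day 1, at 5.05, 1.62, and 2.95 CPM on day 3, and at 5.10, 3.57, and 1.79 CPM on day 7. All culture libraries lay below all fresh ones. The log2 change was -1.77 (standard error 0.57, adjusted p = 0.0129) on day 1, which missed the threshold without isolation 2 (-1.48, adjusted p = 0.156) or isolation 3 (-1.59, adjusted p = 0.0554), and -3.25 (standard error 0.62, adjusted p = 0.000130) on day 7. Aldoa, the ubiquitous type, rose from a mean of 599 to 1140 CPM (0.93, adjusted p = 2.82e-07). Tpi1, triosephosphate isomerase, rose from 220 to 444 CPM (1.01, adjusted p = 9.68e-07), with 0.16 (adjusted p = 0.281) on day 1.

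The lower enzymes of glycolysis, which turn glyceraldehyde-3-phosphate into pyruvate, rose together. Of 6 genes, 5 were higher on day 1 and 6 on days 3 and 7 (all genes, 26.2%, 26.1%, and 28.6%), and none of the 6 was lower on any of these days. Their median log2 change was 1.32, 1.75, and 2.07. The largest rise was that of Eno1 (chr4:150236721-150248879, plus strand), which encodes enolase 1. Eno1 was at 148, 187, and 148 CPM on day 0, at 829, 913, and 750 CPM on day 1, at 1980, 1820, and 1550 CPM on day 3, and at 2730, 2630, and 2910 CPM on day 7. The 4 days did not overlap in any library. The log2 change of Eno1 was 2.37 (standard error 0.16, adjusted p = 4.64e-10) on day 1, 3.47 (standard error 0.17, adjusted p = 6.01e-12) on day 3, and 4.10 (standard error 0.17, adjusted p = 6.59e-13) on day 7, which is 17.1-fold. Near-identical copies of Eno1, such as the retrogene Eno1b, held 7.29% to 31.9% of the reads of gene and copies together. With the copies added, the Krt8+/+ means were 176 CPM on day 0 and 2990 CPM on day 7.

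The other lower enzymes changed less. Gapdh went from a mean of 310 to 1490 CPM (2.26, adjusted p = 3.6e-09) and Pgam1, phosphoglycerate mutase, from 117 to 591 CPM (2.34, adjusted p = 3e-10). Pgk1, phosphoglycerate kinase, went from 94.6 to 348 CPM (1.88, adjusted p = 9.65e-10), and was at 329 CPM on day 1. Pkm, the pyruvate kinase outside liver and red cells, went from 608 to 1910 CPM (1.65, adjusted p = 1.3e-08). Gapdh has 127 near-identical copies in the genome, and these held 48.8% to 55.9% of the reads of gene and copies together, so that its level is uncertain. With them added, Gapdh was at 619 CPM on day 0 and 2950 CPM on day 7. Eno2, the neuronal enolase, was at 2.80 CPM on day 0 and 8.87 CPM on day 7 (1.61, adjusted p = 0.00800), and missed the threshold without isolation 2 (1.44, adjusted p = 0.0658) or isolation 3 (1.00, adjusted p = 0.135).

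**Figure D2:**
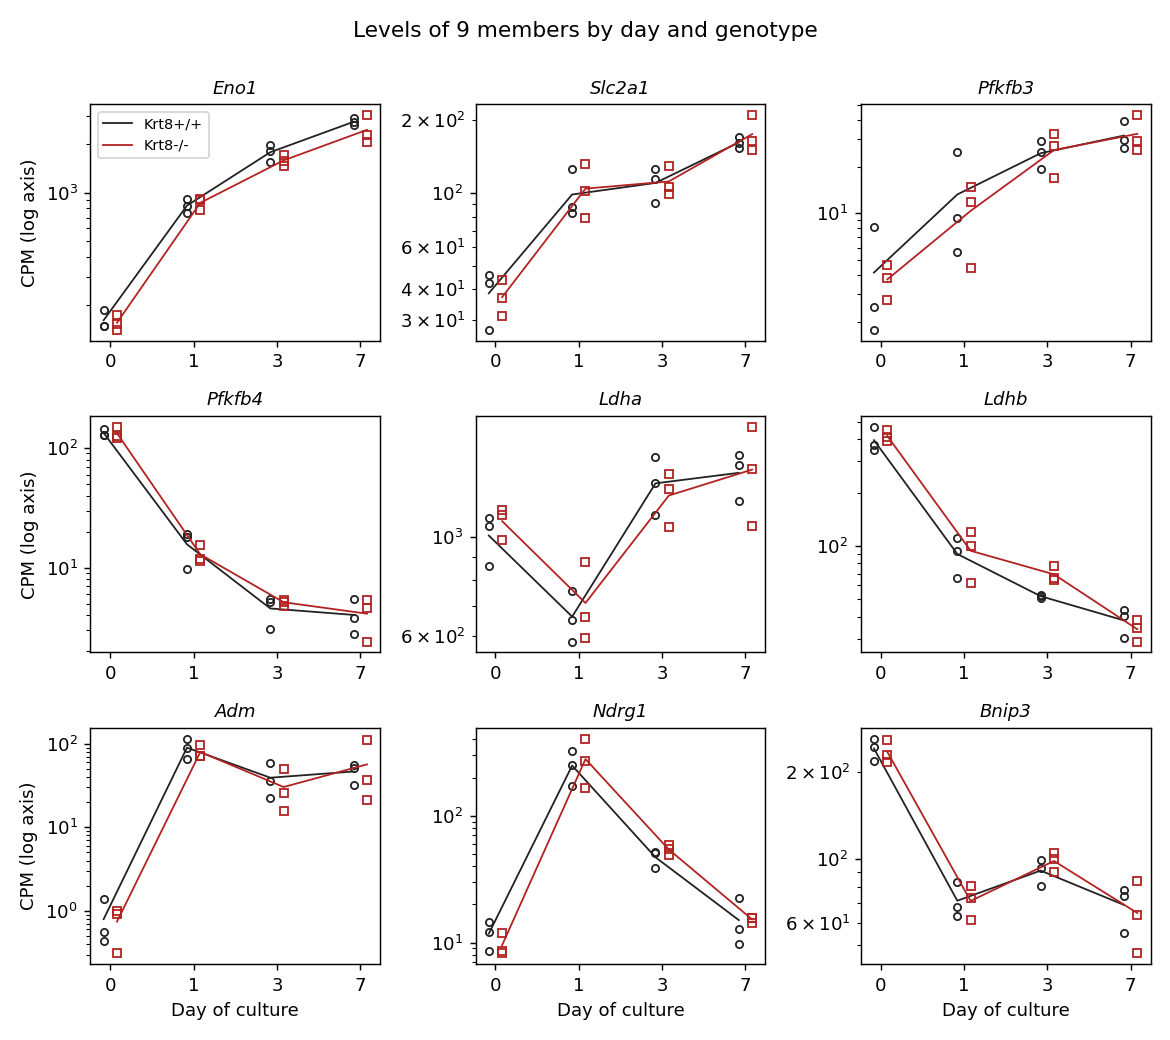
CPM (log axis) of 9 of the genes by day of culture, with circles for Krt8+/+ and squares for Krt8-/- libraries (n = 3 per group) and lines through the means. Eno1 rose at each step in Krt8+/+ cells, Ndrg1 peaked on day 1, and the libraries of the genotypes overlapped in all 9 panels on day 7.

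The lactate dehydrogenase genes parted. Ldhb (chr6:142490249-142507957, minus strand) encodes the H subunit, which favors turning lactate into pyruvate. It was at 347, 469, and 369 CPM on day 0, at 111, 66.2, and 93.4 CPM on day 1, at 50.7, 52.6, and 53.3 CPM on day 3, and at 43.7, 40.1, and 30.5 CPM on day 7. The fresh libraries lay above all others. The log2 change was -2.13 (standard error 0.21, adjusted p = 7.42e-08) on day 1 and -3.37 (standard error 0.22, adjusted p = 1.9e-10) on day 7. A near-identical copy held 12.7% to 20.6% of the reads of gene and copy together.

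Ldha (chr7:46841475-46855627, plus strand) encodes the M subunit, which favors lactate production. It was at 860, 1100, and 1060 CPM on day 0, at 651, 756, and 583 CPM on day 1, at 1510, 1320, and 1120 CPM on day 3, and at 1520, 1200, and 1450 CPM on day 7. Day 1 lay below the other days, and day 7 lay above day 0. The dip on day 1 was -0.60 (standard error 0.19, adjusted p = 0.0102) and missed the threshold without isolation 3 (-0.48, adjusted p = 0.0912) or with library totals alone (-0.11, adjusted p = 0.673). The day 7 value was 0.47 (standard error 0.19, adjusted p = 0.0375) and missed it without isolation 1 (0.30, adjusted p = 0.383) or isolation 3 (0.48, adjusted p = 0.0841). The climb from day 1 to day 3 was 0.99 (adjusted p = 0.000668). Pdk1, which encodes a kinase that shuts pyruvate dehydrogenase and is a known HIF-1 target, went from a mean of 33.1 CPM to 8.39 CPM on day 1 (-1.98, adjusted p = 6.43e-05) and 11.7 CPM on day 7 (-1.50, adjusted p = 0.000648).

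Pfkfb4 and Pfkfb3, which set fructose-2,6-bisphosphate, the activator of phosphofructokinase, moved in opposite directions. Outside the 35 genes, Pfkfb2 went from a mean of 77.9 to 8.21 CPM between days 0 and 7 in Krt8+/+ cells. Pfkfb1 was at 0.723 and 1.79 CPM on these days. Pfkfb4 (chr9:108991778-109032228, plus strand) was at 145, 128, and 128 CPM on day 0, at 18.2, 9.78, and 19.1 CPM on day 1, at 5.44, 3.05, and 5.22 CPM on day 3, and at 5.51, 2.82, and 3.78 CPM on day 7. All culture libraries lay below all fresh ones. Its log2 change was -3.08 (standard error 0.28, adjusted p = 2.38e-08) on day 1 and -5.04 (standard error 0.31, adjusted p = 7.9e-11) on day 7, the largest fall of the 35 genes on these days. Pfkfb3 (chr2:11471433-11554077, minus strand), the form with the highest kinase activity, was at 8.20, 2.49, and 1.77 CPM on day 0, at 24.8, 9.28, and 5.64 CPM on day 1, at 29.1, 24.9, and 19.3 CPM on day 3, and at 26.5, 39.2, and 29.6 CPM on day 7. Isolation 1 was the highest on days 0 and 1, which overlapped, and days 3 and 7 lay above all fresh libraries. The log2 change of Pfkfb3 was 1.61 (standard error 0.53, adjusted p = 0.0151) on day 1, which missed the threshold without isolation 2 (1.64, adjusted p = 0.0861), and 2.87 (standard error 0.55, adjusted p = 0.000131) on day 7.

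Shares within gene families, which do not depend on the scaling between libraries, were compared between days 7 and 0 by counts per kilobase of exon. Only members of the 35 entered a family, so that related genes were left out. Of these, Pfkfb2, Hkdc1, and Slc16a7 were at means of 77.9, 91.3, and 71.3 CPM in fresh Krt8+/+ cells. Eno1b and Eno3 were at 85.6 and 44.3 CPM in Krt8+/+ cells on day 7. An exact 2-sided permutation test within genotype (400 arrangements, smallest p 0.005) was run for 8 families, with adjustment over the 8. Shares are given for Krt8+/+ cells, and each difference in percentage points is the mean over both genotypes. All 8 shares differed. Pfkfb4 made up 98.1% ± 1.43 (SD, n = 3) of Pfkfb3 and Pfkfb4 in fresh Krt8+/+ cells, and 66.4% ± 15.9, 22.7% ± 6.82, and 17.0% ± 7.18 after 1, 3, and 7 days. The difference over both genotypes was -81.0 percentage points (exact p = 0.005, adjusted p = 0.00571).

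Ldhb went from 45.2% ± 2.58 to 5.50% ± 1.17 of Ldha and Ldhb in Krt8+/+ cells (-39.7 points over both genotypes, exact p = 0.005, adjusted p = 0.00571). The difference was -42.3 points with near-identical copies added and -25.4 points with raw counts. Slc16a1 went from 97.4% ± 1.79 to 57.8% ± 7.26 of Slc16a1 and Slc16a3 (-39.7 points over both genotypes, exact p = 0.005, adjusted p = 0.00571). Its mean was 94.8% on day 1 and 61.6% on day 3. Hk2 went from 43.3% ± 2.80 to 29.5% ± 2.44 of Hk1 and Hk2 (-12.4 points over both genotypes, exact p = 0.005, adjusted p = 0.00571).

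The remaining 4 shares moved less. In Krt8+/+ cells, Pfkp went from 8.18% ± 1.34 to 13.1% ± 2.04 of the phosphofructokinases and was at 28.9% ± 4.29 on day 1. The difference of Pfkp over both genotypes was 4.25 points (exact p = 0.01, adjusted p = 0.01). With raw counts, its difference was 6.78 points. Aldoa went from 95.2% to 99.7% of Aldoa and Aldoc, and Slc2a1 from 96.0% to 99.4% of Slc2a1 and Slc2a3. The differences over both genotypes were 4.33 and 4.22 points (exact p = 0.005, adjusted p = 0.00571 for each), the latter 8.17 points with raw counts. Eno2 was at 4.19%, 0.852%, and 1.02% of Eno1 and Eno2 in the 3 fresh Krt8+/+ libraries and at 0.364% ± 0.101 on day 7. The difference over both genotypes was -1.95 points (exact p = 0.005, adjusted p = 0.00571), with a larger rise of Eno1 than of Eno2. It was -1.22 points without isolation 1, the highest of the fresh libraries.

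**Figure D3:**
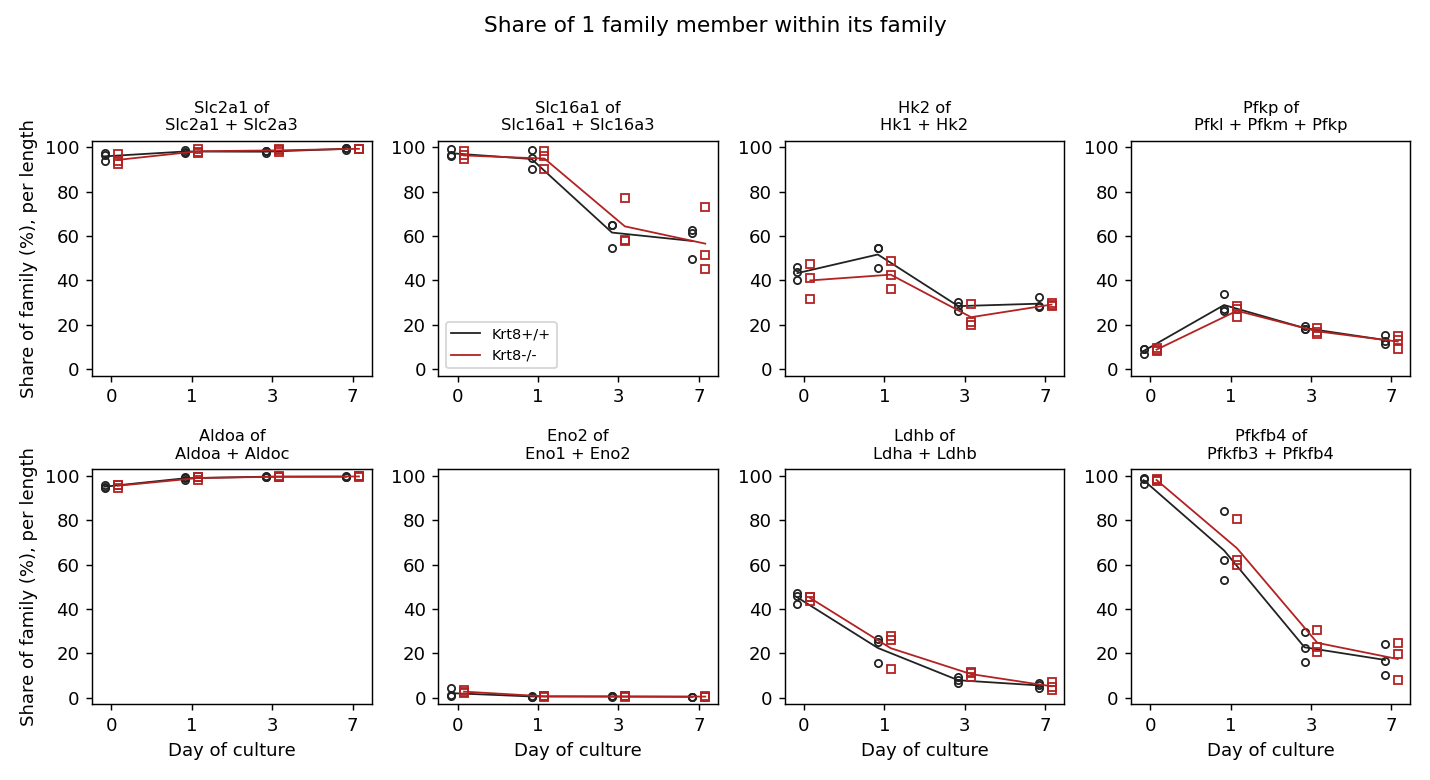
Share (%) of 1 gene within its family, by counts per kilobase of exon, for 8 families and 4 days, with circles for Krt8+/+ and squares for Krt8-/- libraries and lines through the means. The shares of Pfkfb4, Ldhb, and Slc16a1 fell in both genotypes, whereas Aldoa and Slc2a1 held over 90% of their families on average on every day.

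The oxygen-sensing genes did not move as a group. Hif1a was at a mean of 252 CPM on day 0 and 159 CPM on day 7, a log2 change of -0.66 (standard error 0.20, adjusted p = 0.00840) that missed the threshold without isolation 1 (-0.55, adjusted p = 0.0635) and with library totals alone (-0.21, adjusted p = 0.317). HIF-1 is regulated mainly through the stability of its protein, which RNA does not show. Egln1 (chr8:124908587-124949324, minus strand), the main oxygen-sensing hydroxylase, was at 136, 143, and 146 CPM on day 0, at 80.7, 40.8, and 60.3 CPM on day 1, at 68.4, 74.1, and 57.1 CPM on day 3, and at 77.2, 86.2, and 83.2 CPM on day 7. All culture libraries were below all fresh ones, and the log2 change was -1.23 (standard error 0.20, adjusted p = 2.73e-05) on day 1 and -0.79 (standard error 0.19, adjusted p = 0.00155) on day 7, the latter lost with library totals alone (-0.33, adjusted p = 0.0797).

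Egln3 (chr12:54178981-54203860, minus strand), a hydroxylase that HIF-1 itself induces, was low in all libraries. It was at 1.21, 0.867, and 0 CPM on day 0, at 3.53, 3.26, and 4.96 CPM on day 1, at 7.94, 4.80, and 4.99 CPM on day 3, and at 5.17, 2.24, and 6.36 CPM on day 7, with 27 reads over the 3 fresh libraries. No culture library overlapped day 0. The log2 change was 2.41 (standard error 0.62, adjusted p = 0.00266) on day 1 and 2.64 (standard error 0.62, adjusted p = 0.00102) on day 7.

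Of the 8 other hypoxia response genes, 3 were higher and 3 lower on each of days 1, 3, and 7 (all genes, 26.2% and 28.5%, 26.1% and 27.8%, and 28.6% and 30.2%). Adm (chr7:110627661-110629820, plus strand), which encodes the vasodilator peptide adrenomedullin, had the largest rise of the 35 genes on days 1 and 7. It was at 1.40, 0.433, and 0.554 CPM on day 0, at 115, 66.2, and 88.2 CPM on day 1, at 59.5, 35.6, and 22.6 CPM on day 3, and at 55.5, 32.4, and 51.8 CPM on day 7, with 31 reads over the 3 fresh libraries. All culture libraries lay above all fresh ones, and day 1 lay above days 3 and 7. The log2 change of Adm was 6.67 (standard error 0.69, adjusted p = 1.14e-07) on day 1, 5.47 (standard error 0.67, adjusted p = 8.82e-07) on day 3, and 5.72 (standard error 0.67, adjusted p = 3.99e-07) on day 7. The Krt8-/- day 7 library with the highest fibroblast sum had 112 CPM of Adm. The other Krt8-/- libraries of that day had 36.5 and 21.5 CPM. The library with the highest sum was also the highest of its group in Eno1, Pkm, and Ldha, but not in Slc2a1 or Pfkfb3. On day 3, isolations had the same order by fibroblast sum as by Adm in both genotypes. Adm was then at 26.1, 49.3, and 15.7 CPM in Krt8-/- cells. Among the Krt8+/+ day 7 libraries, the one with the highest sum was not the highest in Adm. In Krt8+/+ cells, the mean fibroblast sum was lowest on day 1 (182 CPM), when Adm was highest. The part of fibroblasts in Adm was not tested.

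Ndrg1 (chr15:66929318-66969640, minus strand), a stress- and hypoxia-induced gene, was chosen for its course after its values were seen. It was at 12.2, 14.4, and 8.64 CPM on day 0, at 251, 171, and 324 CPM on day 1, at 38.5, 51.8, and 50.7 CPM on day 3, and at 22.6, 12.7, and 9.74 CPM on day 7. Day 7 overlapped day 0. The log2 change was 4.40 (standard error 0.34, adjusted p = 3.51e-09) on day 1, 2.00 (standard error 0.32, adjusted p = 2.23e-05) on day 3, and 0.35 (standard error 0.32, adjusted p = 0.352) on day 7. The falls from day 1 to day 3 (-2.40, adjusted p = 1.39e-05) and from day 3 to day 7 (-1.65, adjusted p = 0.00227) both passed the threshold, the second not without isolation 2 (-1.48, adjusted p = 0.0568).

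Bnip3 (chr7:138890836-138909519, minus strand), which encodes a mitophagy receptor and is a textbook HIF-1 target, had the largest fall of these 8 genes on day 7. It was at 219, 244, and 261 CPM on day 0, at 83.1, 63.4, and 68.0 CPM on day 1, at 92.8, 80.7, and 99.4 CPM on day 3, and at 74.3, 55.4, and 77.7 CPM on day 7. Fresh libraries lay above all culture libraries. The log2 change of Bnip3 was -1.76 (standard error 0.18, adjusted p = 9.52e-08) on day 1 and -1.80 (standard error 0.18, adjusted p = 3.82e-08) on day 7.

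The collagen prolyl hydroxylase genes also fell. P4ha1 was at a mean of 264 CPM on day 0, 77.2 CPM on day 1 (-1.77, adjusted p = 1.49e-05), and 158 CPM on day 7 (-0.74, adjusted p = 0.0196), where it missed the threshold without isolation 1 (-0.54, adjusted p = 0.151) or isolation 2 (-0.62, adjusted p = 0.0904). P4ha2 was at 128 CPM on day 0 and 90.1 CPM on day 7 (-0.50, adjusted p = 0.00614), and missed it without isolation 1 (-0.44, adjusted p = 0.0976). With library totals alone, the day 7 changes of both missed the threshold, P4ha1 at -0.29, adjusted p = 0.302, and P4ha2 at -0.05, adjusted p = 0.751. Vegfa, the angiogenic growth factor, was at 205, 241, 278, and 423 CPM on days 0, 1, 3, and 7. It passed the threshold on day 7 (1.04, adjusted p = 0.00313) but not without isolation 3 (0.70, adjusted p = 0.0980). Car9, the carbonic anhydrase used as a hypoxia marker, had 151 reads over all 24 libraries and at most 1.08 CPM in any, with 28 reads in the 3 fresh Krt8+/+ libraries. Its log2 change in Krt8+/+ cells was -1.45 (standard error 0.92, adjusted p = 0.191) on day 1 and -0.59 (standard error 0.88, adjusted p = 0.581) on day 7, and the day 1 value passed the threshold without isolation 1 (-3.35, adjusted p = 0.0309).

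**Figure D4:**
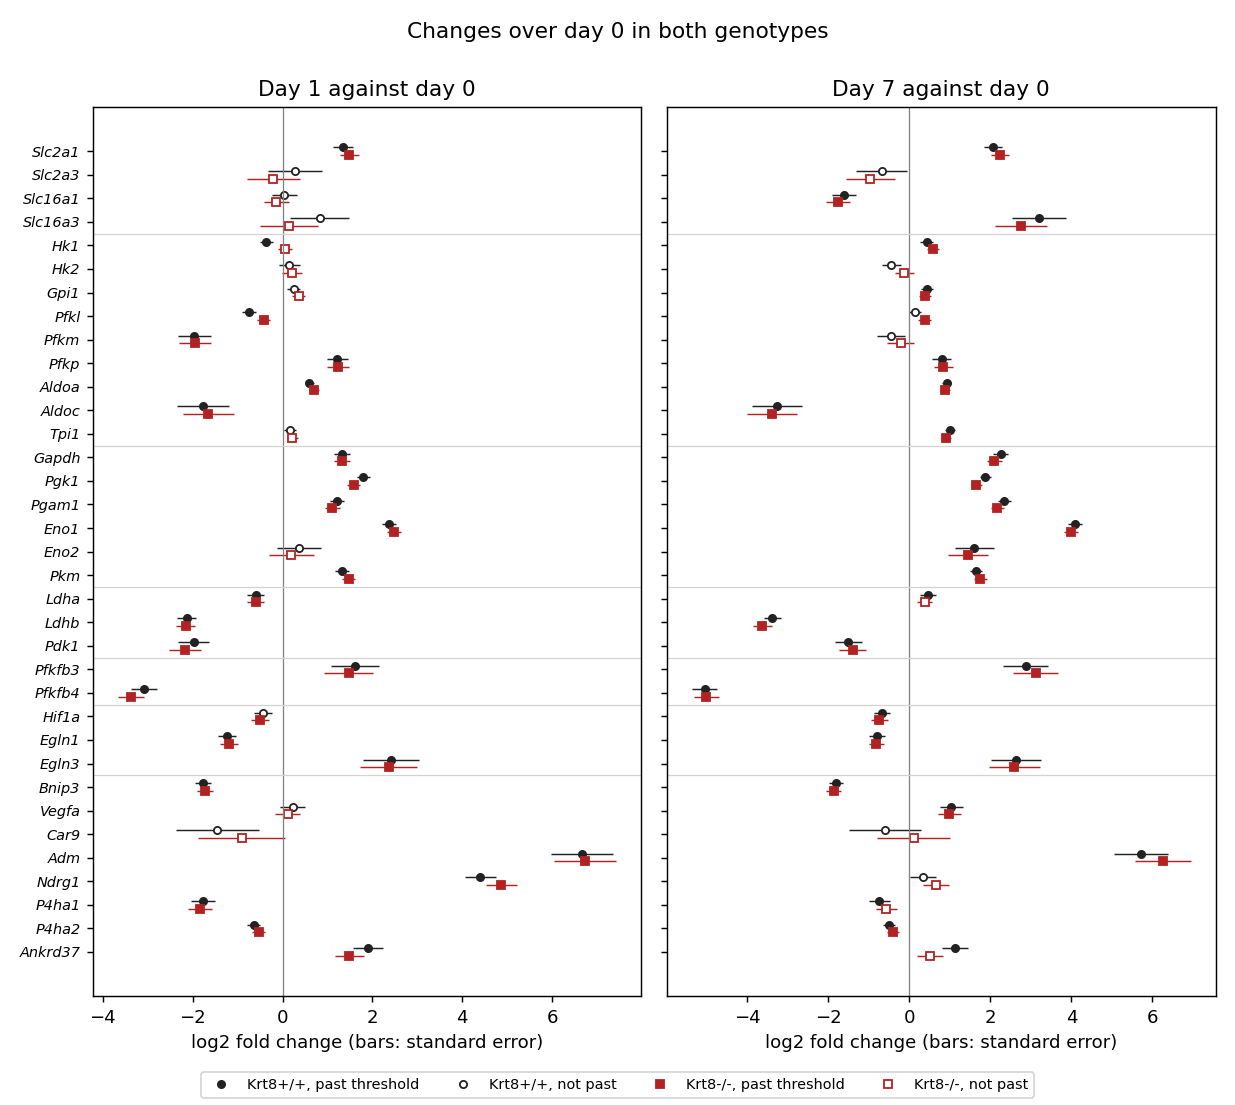
Log2 change over day 0 on day 1 (left) and day 7 (right) for the 35 genes, grouped by role, with bars for standard errors, circles for Krt8+/+, and squares for Krt8-/- cells. Filled marks passed an adjusted p of 0.05, and no gene was filled in opposite directions in the 2 genotypes, from Adm at 6.67 on day 1 to Pfkfb4 at -5.04 on day 7 in Krt8+/+ cells.

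In Krt8-/- cells, the course was measured in separate libraries. On day 1, 13 genes were higher and 12 lower (all genes, 23.7% and 26.9%), on day 3, 16 and 12 (all genes, 25.4% and 26.6%), and on day 7, 18 and 9 (all genes, 28.6% and 29.9%). The same direction was called in both genotypes for 24 genes on day 1, 27 on day 3, and 26 on day 7, and opposite directions for 0. This overlap was not counted over all genes, so whether it is particular to the 35 was not tested. The calls that differed were those of Hk1 and Hif1a on day 1, Hk1 and Eno2 on day 3, and Pfkl, Ldha, P4ha1, and Ankrd37 on day 7. With the isolation as a block, Hif1a also passed on day 1 in Krt8+/+ cells (-0.46, adjusted p = 0.0433). A difference in calls is not a test of the genotypes. Eno1 was at 140, 153, and 173 CPM on day 0 and 2280, 2060, and 3030 CPM on day 7 in Krt8-/- cells, a log2 change of 3.99 (standard error 0.17, adjusted p = 8.72e-13). Without isolation 2, 20 of the 35 were called on day 1, and without isolation 3, whose day 7 library had the highest fibroblast sum, 22 on day 7. On day 7, Pfkfb4 was at -5.00 (adjusted p = 7.96e-11), Ldhb at -3.62 (adjusted p = 8.56e-11), and Adm at 6.25 (adjusted p = 1.56e-07) on the same scale.

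The genotypes were compared directly to ask whether loss of keratin 8 altered these genes. By edgeR, 0 of the 35 differed on day 0, 1, 3, or 7, in the mean of the 4 days, or in the test of genotype by day. Among all genes, 0.0277% were called on day 0, 0.0166% on each of days 1, 3, and 7, 0.0665% in the mean, and 0.00554% in the test of genotype by day. At an unadjusted p under 0.05, 1 of the 35 was found on day 1 and 1 in the mean, Hk1 both times, and the DESeq2 test called 0. Eno1b, a near-identical copy of Eno1 that is not among the 35, was named here after its values were seen. It was higher in Krt8-/- cells in the mean of the 4 days (log2 difference 1.47, standard error 0.22, adjusted p = 0.00400 by edgeR), with 5.12 ± 1.03 CPM (SD, n = 3) in Krt8+/+ and 14.5 ± 5.43 CPM in Krt8-/- cells on day 0 and 85.6 ± 3.77 CPM (SD, n = 3) in Krt8+/+ and 230 ± 107 CPM in Krt8-/- cells on day 7. Eno1b was 99.482% identical to Eno1 over 1736 aligned bases, so that its level is uncertain. The difference of Eno1 was -0.08 alone and 0.14 with its copies added. In the mean of the 4 days, the 95% interval of the log2 difference lay within ±0.5 for 26 of the 35 genes and within ±1 for 34, all but Car9. On single days, it lay within ±1 for 26 or 27 genes.

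The 3 genes with the smallest p in the mean of the 4 days were Hk1, P4ha2, and Ankrd37. Hk1 (chr10:62268855-62379908, minus strand) was at 85.5, 88.7, and 85.5 CPM on day 0, at 74.6, 61.5, and 65.6 CPM on day 1, at 99.4, 116, and 82.9 CPM on day 3, and at 113, 111, and 126 CPM on day 7 in Krt8+/+ cells. In Krt8-/- cells, it was at 102, 86.6, and 64.7 CPM on day 0, at 90.7, 93.8, and 79.6 CPM on day 1, at 122, 105, and 102 CPM on day 3, and at 120, 136, and 125 CPM on day 7. The genotypes overlapped on every day but day 1, when Krt8-/- libraries were higher. The log2 difference, Krt8-/- minus Krt8+/+, was 0.39 (95% interval 0.08 to 0.69, unadjusted p = 0.015, adjusted p = 1) on day 1 and 0.15 (95% interval 0.00 to 0.31, unadjusted p = 0.046, adjusted p = 1) in the mean, by edgeR.

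P4ha2 (chr11:54100095-54131665, plus strand) was at 130, 125, and 129 CPM on day 0, at 88.8, 63.1, and 94.5 CPM on day 1, at 75.8, 87.6, and 95.9 CPM on day 3, and at 83.3, 86.4, and 101 CPM on day 7 in Krt8+/+ cells. The Krt8-/- libraries were at 130, 142, and 119 CPM on day 0, at 99.3, 76.0, and 95.8 CPM on day 1, at 95.4, 99.4, and 97.0 CPM on day 3, and at 90.6, 117, and 88.8 CPM on day 7. The genotypes overlapped on all 4 days, and the mean log2 difference was 0.12 (95% interval -0.04 to 0.27, unadjusted p = 0.13, adjusted p = 1) by edgeR.

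Ankrd37 (chr8:45996902-46005707, minus strand), an ankyrin-repeat gene known as a HIF-1 target, was at 3.50, 2.49, and 1.77 CPM on day 0, at 9.33, 12.5, and 7.74 CPM on day 1, at 6.82, 7.32, and 8.06 CPM on day 3, and at 6.13, 4.73, and 6.36 CPM on day 7 in Krt8+/+ cells. In Krt8-/- cells, it was at 5.04, 2.94, and 3.17 CPM on day 0, at 8.97, 11.7, and 10.7 CPM on day 1, at 9.39, 9.28, and 10.5 CPM on day 3, and at 5.89, 2.57, and 7.40 CPM on day 7. The genotypes overlapped on days 0, 1, and 7 but not on day 3, when Krt8-/- libraries were higher. It rose on day 1 in both, by 1.90 (adjusted p = 7.36e-05) and 1.49 (adjusted p = 0.000706), and the mean log2 difference between genotypes was 0.22 (95% interval -0.11 to 0.55, unadjusted p = 0.18, adjusted p = 1) by edgeR. Ankrd37 shares exon bases with Ufsp2 and Lrp2bp on the opposite strand, and the reads of Ufsp2 were 609% of its own.

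**Figure D5:**
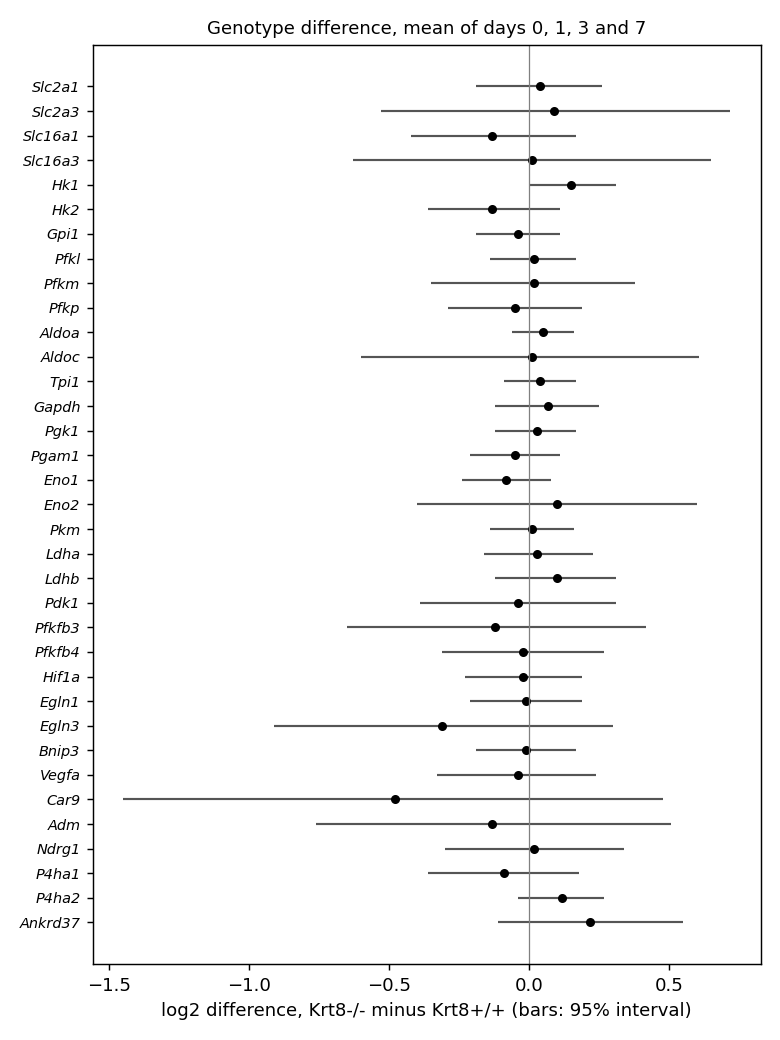
Log2 difference, Krt8-/- minus Krt8+/+, in the mean of days 0, 1, 3, and 7 for the 35 genes (points), with 95% intervals (lines). The interval of Hk1 began at 0 after rounding and all others included 0, and the points ran from -0.48 for Car9 to 0.22 for Ankrd37.

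Other genes of these pathways were counted on day 7 against day 0 in Krt8+/+ cells, where 28.6% and 30.2% of all genes were higher and lower. Of 21 other glycolysis and gluconeogenesis genes tested, 8 were higher and 8 lower, with a median log2 change of -0.21. Eno1b (4.07, adjusted p = 6.89e-07), a near-identical copy of Eno1, and Eno3 (2.71, adjusted p = 0.000541), the muscle enolase, had the largest rises. Hkdc1, a hexokinase-like gene, went from 3230 reads on day 0 to 3 on day 7, a ratio of 1320 with a 95% interval of 452 to 6420 that covers counting error only. Fbp1, the fructose-1,6-bisphosphatase of gluconeogenesis, went from 417 reads to 3, a ratio of 171 (58.0 to 831).

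Of 13 genes for the entry of pyruvate into mitochondria, 3 were higher and 8 lower, with a median of -0.47. The largest falls were those of Pdk2 (-3.50, adjusted p = 1.31e-09), a pyruvate dehydrogenase kinase, and Slc16a7 (-3.11, adjusted p = 1.25e-08), which encodes the pyruvate and lactate carrier MCT2. The largest rises were those of Pdk4 (1.94, adjusted p = 0.000196), another such kinase, and Dlat (0.89, adjusted p = 9.76e-07), a subunit of pyruvate dehydrogenase. Of 7 pentose phosphate genes, 3 were higher, led by Taldo1 (1.31, adjusted p = 1.66e-07) and Pgls (0.65, adjusted p = 0.0118), and Tkt, transketolase, was lower (-1.28, adjusted p = 2.88e-09).

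Of 8 glucose-responsive regulators, 2 rose, the transcription factor gene Myc (3.92, adjusted p = 5.03e-12) and Arrdc4 (0.67, adjusted p = 0.0431), and 4 fell. Mlxipl, which encodes the glucose sensor ChREBP, went from 457 reads to 3, a ratio of 187 (63.6 to 911), and Ppp1r3c, a glycogen-targeting subunit of protein phosphatase 1, fell with a log2 change of -6.56 (adjusted p = 6.36e-06).

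Of 7 other HIF subunits and oxygen sensors tested, 6 fell and 1 rose. Epas1, which encodes HIF-2α, went from 312 to 5.08 CPM (-5.95, adjusted p = 1.86e-08), and the hydroxylase gene Egln2 from 109 to 37.7 CPM (-1.53, adjusted p = 3.89e-09). Arnt2 went from 0.568 to 4.02 CPM (2.81, adjusted p = 0.0107), with 19 reads in the fresh libraries together. In Krt8-/- cells, Arnt2 was at means of 2.72 CPM (SD 2.94) on day 0 and 3.94 CPM (SD 3.48) on day 7. None of the 7 genes was called higher there on day 7. Of 29 other HIF target genes tested, 13 were higher and 8 lower. Lox (8.19, adjusted p = 3.45e-08), the collagen cross-linking oxidase, and Edn1 (7.13, adjusted p = 7.64e-10), which encodes endothelin-1, rose most. Lox went from 4.93 to 1560 CPM and is also expressed by fibroblasts. Of the 6 fibroblast markers, 3 were higher and 2 lower on day 7. Col1a1 went from 53.9 to 522 CPM and Dcn from 211 to 18.5 CPM. The sum of the 6 was at 980, 501, and 292 CPM on day 0 in isolations 1, 2, and 3. On day 7, that sum was at 895, 999, and 1910 CPM, lower in isolation 1 and higher in the others. Nos2, which encodes inducible nitric oxide synthase, was at least 173-fold lower, with 422 reads in fresh cells and 0 on day 7, taken as the floor of 3 counts for a group, and Zfp395 had a log2 change of -2.96 (adjusted p = 4.82e-09).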

How the data were processed

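RNA from AEC2s of both genotypes was sequenced in 24 libraries (8 groups of 3). Per the labels' processing notes, which name cutadapt 2.3, STAR 2.7.8a, RSEM 1.3.3, and GRCm38, the authors deposited 1 table of gene counts, whole numbers that were not normalized. It has 55426 entries, of which 5 are reporter entries that hold 0 counts. The sources used here do not say whether counting used strand. Symbols, exon lengths, and coordinates came from GENCODE M21 (55240 identifiers matched). Aldoa has 2 identifiers, and the one with more counts was used.

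Counts were filtered with filterByExpr (minimum count 10, minimum total 15), scaled by TMM, and fitted with edgeR 4.0.16 in R 4.3.3 as 1 model of 8 groups with the quasi-likelihood F test. P-values were adjusted over all 18046 genes tested (Benjamini-Hochberg, threshold 0.05). The code was tested on simulated data. Family shares were tested by exact permutation. Near-identical copies were found by BLAST (95% identity over 200 bases). The members and lists were chosen with earlier results of these data known. Within each role, the genes with the largest rise and fall past the threshold on day 1 or 7 are given in full, and of each other list the 2 largest rises and falls. Among genotype tests, the 3 smallest p-values are given.

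Isolation numbers mark a shared date in the sample titles, which was taken to pair the samples. The correlations of same-numbered deviations were -0.0345 to 0.548, with 31 of 42 pairs over 0.1. Replicate libraries of a group differed by more than counting noise (chi-square per gene 9.13 to 109 over 24 pairs). Alternatives were DESeq2 1.42.0 (test and size factors), upper-quartile factors, library totals alone, no filter, the libraries compared alone, a block for isolation, leaving out each isolation, and copies added to their gene, the last chosen after seeing the data.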

Additional observations from a re-analysis of the deposited data

How the results depend on the processing

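Of 5720 comparisons of a gene's value with an alternative, 5473 kept their side of the threshold and any called direction (262 of these, called in neither, differed in sign), 156 lost the threshold, 83 gained it, and 8 reversed. All 8 reversals came with library totals alone, a scaling that moved the median of all genes: Hk1 on day 1 (0.10), Pfkl (0.51), Hif1a (0.09), and P4ha2 (0.04) on day 3 in Krt8+/+ cells, and Pfkl on day 1 (0.07) and day 3 (0.54) and P4ha2 on day 3 (0.14) and day 7 (0.02) in Krt8-/- cells. From day 3 to day 7, the 2 calls in Krt8+/+ cells became 4 with the DESeq2 test and 0 to 1 with an isolation left out, and the 5 calls in Krt8-/- cells became 8 and 1 to 4. From day 1 to day 3 in Krt8-/- cells, 10 calls became 3 to 10 with an isolation left out, with 3 without isolation 1. The cause was not tested.

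With the isolation as a replicate block, the calls over day 0 numbered 26, 28, and 29 in Krt8+/+ and 25, 28, and 27 in Krt8-/- cells, and no call was lost. With sign flips within isolations, all 8 family shares had an adjusted p of 0.0312, the smallest that test could give. Each genotype of an isolation was flipped on its own there, although libraries of the genotypes from the same isolation were correlated (up to 0.548). With an isolation left out, no share could pass, since the smallest adjusted p was 0.0556. The differences then were 3.37 to 4.86 points for Slc2a1, -45.4 to -36.6 for Slc16a1, -14.4 to -11.2 for Hk2, 2.88 to 5.67 for Pfkp, 4.07 to 4.61 for Aldoa, -2.39 to -1.22 for Eno2, -40.2 to -39.3 for Ldhb, and -83.8 to -76.9 for Pfkfb4. The fit of the libraries compared alone was not run for the mean of the 4 days or genotype by day. The fewest reads over all libraries were those of Car9 (151), Slc2a3 (1108), and Egln3 (1192).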
